A study of Mus musculus with 14 samples.

Results

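The results concern 10 genes of the mouse kidney: Eda2r and 9 established targets of the transcription factor p53, namely Cdkn1a, Mdm2, Ccng1, Phlda3, Gdf15, Trp53inp1, Bax, Zmat3, and Sesn2. They are 10 of the 21878 genes with a value in every mouse. Eda2r was picked because it was among the clearest differences between diabetic and control WT kidneys, so its WT values are given as a description with no test. The other 9 genes were picked as known p53 targets. All 10 genes were chosen with earlier results of these data known.

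Kidney RNA was sequenced from 14 male C57BL/6J mice: 3 WT control, 3 Cfb-/- control, 4 diabetic WT, and 4 diabetic Cfb-/- mice. Cfb encodes complement factor B, the protease of the alternative pathway, and the study asked how its deletion in all tissues changes the diabetic kidney. Diabetic mice ate a high-fat diet (HFD) with 60% of calories from fat for 4 weeks and were injected with streptozotocin (STZ), a toxin of pancreatic beta cells, at 60 mg/kg on 5 days, whereas control mice ate chow with 10% of calories from fat and received citrate buffer. The labels give a time of 34 weeks for all mice without saying from when, call the deletion a knockdown, and carry the diabetic treatment text for control mice too, so groups were taken from the sample titles. STZ, diet, and high glucose came together in every diabetic mouse and cannot be told apart. Cfb itself was at 1.13 to 2.22 FPKM in Cfb-/- mice and at 56.7 to 131 FPKM in WT mice, so that the genotype in every title passed this check. It does not check which mice were diabetic, as Cfb overlapped between diabetic WT (56.7 to 81.9 FPKM) and WT control mice (62.2 to 131 FPKM).

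p53 is a transcription factor that the ligase MDM2 keeps at a low level and that DNA damage and other stresses stabilize. Its targets stop the cell cycle, repair DNA, restrain growth signaling, or prime cells for death, and one of them, Mdm2, closes a feedback loop on p53. In the kidney, p21 (Cdkn1a) and secreted GDF15 are known to rise after tubular injury. Eda2r encodes a receptor of the TNF receptor family that binds the A2 form of ectodysplasin.

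The stretches before the gene starts are shown for Cdkn1a and Eda2r, the pair with the largest differences between diabetic and control kidney, and for the members that hold a single p53 half-site there. On GRCm38.p6, Cdkn1a spans chr17:29090979-29100722 and Eda2r spans chrX:97333837-97377234. RefSeq promoter entries on this build were matched for 8 of the 10 genes, with 10 start sites between them. The 10-base p53 half-site consensus, which reads the same on both strands, was searched in the 250 bases before each start. It was found before 4 of the 10 starts, in Cdkn1a, Mdm2, Ccng1, and Bax, against 7.13% of all 32851 windows of this length. Half-sites are in capitals below, and each sequence runs 5′ to 3′ on the strand of its gene.
Cdkn1a, chr17:29090729-29090978, plus strand: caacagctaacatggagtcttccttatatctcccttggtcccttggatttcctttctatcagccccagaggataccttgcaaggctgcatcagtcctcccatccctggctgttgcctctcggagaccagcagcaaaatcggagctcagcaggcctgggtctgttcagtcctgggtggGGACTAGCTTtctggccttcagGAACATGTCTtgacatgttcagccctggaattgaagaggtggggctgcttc
Eda2r, chrX:97377210-97377459, minus strand: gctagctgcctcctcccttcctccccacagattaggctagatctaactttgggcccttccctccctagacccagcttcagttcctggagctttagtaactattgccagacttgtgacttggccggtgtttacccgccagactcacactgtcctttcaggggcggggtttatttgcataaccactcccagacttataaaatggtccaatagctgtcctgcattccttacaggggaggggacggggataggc
Mdm2, chr10:117710915-117710964, minus strand: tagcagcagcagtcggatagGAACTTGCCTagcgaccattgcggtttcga
Ccng1, chr11:40755442-40755491, minus strand: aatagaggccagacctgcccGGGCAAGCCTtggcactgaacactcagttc
Bax, chr7:45467070-45467119, minus strand: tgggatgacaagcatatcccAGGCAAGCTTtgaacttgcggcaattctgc
The Cdkn1a window held 2 half-sites, which began 73 and 51 bases before the start, and a pair separated by 13 bases or fewer was found in 0.0639% of all windows. The half-sites of Mdm2, Ccng1, and Bax began 186, 185, and 201 bases before their starts. No half-site was found before Eda2r, Phlda3, Sesn2, either start of Gdf15, or the second start of Cdkn1a. The windows of Eda2r, Ccng1, and Bax, both of Gdf15, and the second of Cdkn1a lie in part or wholly inside the annotated spans of their genes. These matches describe letters only, and p53 binding was not measured.

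Expression was measured as FPKM, fragments scaled for transcript length and for the size of the library, so that levels of different genes can be set side by side. Differences were tested on log2(FPKM + 0.1) with limma in a fit to all 14 mice, with Benjamini-Hochberg adjustment over 14912 genes, and log2 differences below are on that scale. The gene-to-gene range was wide. Among Cfb-/- diabetic mice the mean level ran from 141 FPKM for Ccng1 down to 3.51 FPKM for Eda2r, in the order Ccng1, Cdkn1a, Gdf15, Phlda3, Trp53inp1, Sesn2, Zmat3, Bax, Mdm2, Eda2r. In that order Ccng1 and Cdkn1a, Gdf15 and Phlda3, Zmat3 and Bax, and Bax and Mdm2 overlapped between mice. In WT control mice Ccng1 was again highest at 42.1 FPKM and Eda2r lowest at 0.0425 FPKM, whereas Cdkn1a stood at the sixth place.

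Diabetic kidneys had higher levels of all 10 genes than control kidneys among Cfb-/- mice, each with an adjusted p under 0.05, and no diabetic mouse overlapped a control mouse in any of them. Of all tested genes, 27.4% were higher and 6.4% were lower at the same threshold, and 33.6% were higher without overlap. The differences ran from 4.40 log2 units for Cdkn1a and 4.16 for Eda2r to 0.45 for Sesn2, with a median of 1.37 against 0.22 over all tested genes. In bulk kidney RNA, more cells of a type and more RNA per cell cannot be told apart. In WT mice all 9 genes that could be tested were higher in diabetic kidneys, against 36.2% of all tested genes that were higher and 9.97% that were lower, and 8 of them did so without overlap, against 35.5%. At a fold change over 2 with an unadjusted p under 0.05, 6 of 10 genes were higher in Cfb-/- mice, against 13.3% of all genes, and 7 of 9 in WT mice, against 15.6%. Exact two-sided permutation tests gave p = 0.0571 for each of the 10 genes among Cfb-/- mice, which is the smallest p that 4 mice against 3 allow.

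**Figure D1:**
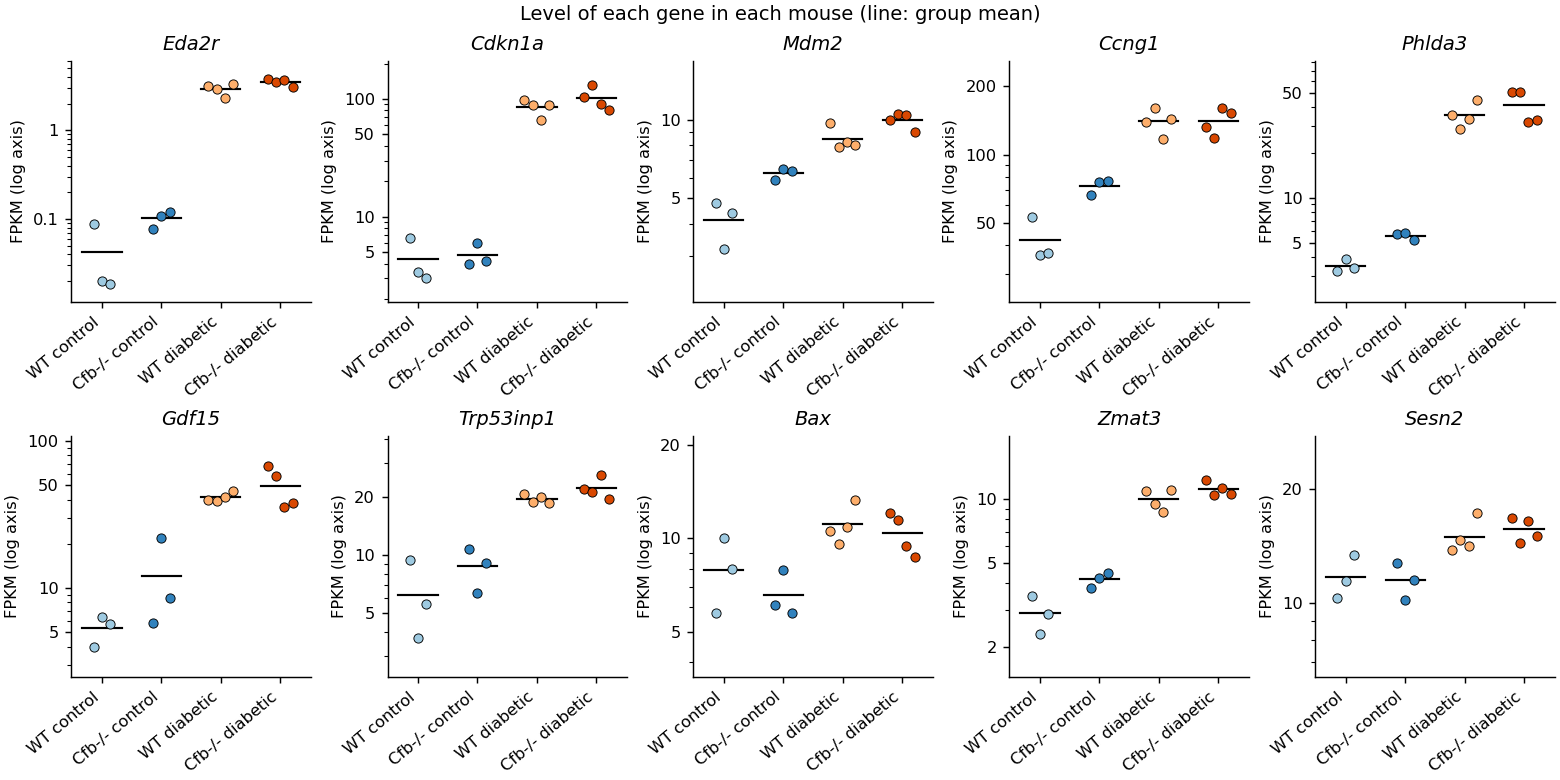
Level of each gene in each mouse in FPKM on a log axis, by group, with 1 point per mouse and a line at the group mean. Eda2r lay between 2.35 and 3.78 FPKM in the 8 diabetic mice and between 0.0186 and 0.120 FPKM in the 6 control mice, whereas the control and diabetic points of Bax in WT mice overlapped.

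Eda2r and Gdf15 act at the cell surface and outside the cell. Eda2r was at 0.0888, 0.0200, and 0.0186 FPKM in the WT controls, 0.0767, 0.108, and 0.120 FPKM in the Cfb-/- controls, 3.14, 2.95, 2.35, and 3.37 FPKM in the diabetic WT group, and 3.78, 3.50, 3.66, and 3.09 FPKM in the diabetic Cfb-/- group. All 8 diabetic mice were thus far above all 6 control mice, and among WT control mice replicate 1 lay with the Cfb-/- control mice rather than with the other two. In Cfb-/- mice, whose values were not the stated ground for the choice, Eda2r was higher by 4.16 log2 units (SE 0.20, adjusted p = 4.59e-08 by limma). Earlier results of these data were known when the gene was chosen, so this test is not fully independent of the choice. Eda2r ranked at place 12 among the 14912 tested genes by this difference. Of the control mice, only Cfb-/- replicates 2 and 3 reached 0.1 FPKM, so Eda2r passed the filter on low values through diabetic mice. Without that filter the adjusted p by limma was 3.78e-07. In a fit to the Cfb-/- mice alone the adjusted p was 1.12e-05. The mean FPKM was 34.5 times higher in diabetic than in control Cfb-/- mice. In WT mice the difference was 4.44 log2 units.

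Eda2r was close to the lowest readable value in control kidneys. Multiplied by relative depth, its value was 0.0173 in WT control replicate 2 and 0.0172 in replicate 3, nearly the same step in both. The size of the log2 difference in Cfb-/- mice therefore moved with the constant added before taking logs, to 2.03 with 1 and 4.99 with 0.01, and the adjusted p was 5.92e-08 and 9.67e-07. In WT mice it was 1.92 and 6.06. The diabetic level itself, 3.51 ± 0.30 FPKM in Cfb-/- mice (SD, n = 4) and 2.95 ± 0.44 FPKM in WT mice (SD, n = 4), does not depend on that constant.

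Gdf15, a secreted cytokine of the TGF-β family, was at 4.00, 6.33, and 5.68 FPKM in the WT controls, 5.83, 21.8, and 8.54 FPKM in the Cfb-/- controls, 39.6, 39.2, 41.8, and 45.8 FPKM in the diabetic WT group, and 67.4, 57.4, 35.5, and 37.9 FPKM in the diabetic Cfb-/- group. Control replicate 2 of the Cfb-/- mice stood above all other control mice and below every diabetic mouse. Gdf15 was higher in diabetic kidneys by 2.20 log2 units in Cfb-/- mice (SE 0.34, adjusted p = 0.000226) and by 2.96 in WT mice (SE 0.34, adjusted p = 2.37e-05). Without that control mouse the difference in Cfb-/- mice was 2.74 log2 units.

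Cdkn1a and Ccng1 belong to the cell cycle branch of the p53 response. Cdkn1a, which encodes the cyclin-dependent kinase inhibitor p21, was at 6.61, 3.39, and 3.03 FPKM in the WT controls, 4.00, 5.98, and 4.17 FPKM in the Cfb-/- controls, 97.8, 88.1, 66.6, and 88.9 FPKM in the diabetic WT group, and 105, 131, 90.8, and 80.1 FPKM in the diabetic Cfb-/- group. The diabetic mice stood far above the control mice, and WT control replicate 1 was the highest of the 6 controls. Cdkn1a was higher in diabetic kidneys by 4.40 log2 units in Cfb-/- mice (SE 0.24, adjusted p = 8.09e-08) and by 4.34 in WT mice (SE 0.24, adjusted p = 6.59e-08), the largest tested differences of the 10 genes in both genotypes, and it was at place 7 of 14912 genes in Cfb-/- mice. The mean FPKM was 21.6 and 19.7 times higher.

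Ccng1 encodes cyclin G1, which recruits a phosphatase to MDM2. It was at 53.1, 36.2, and 37.1 FPKM in the WT controls, 66.3, 75.6, and 76.4 FPKM in the Cfb-/- controls, 139, 160, 117, and 144 FPKM in the diabetic WT group, and 133, 118, 161, and 153 FPKM in the diabetic Cfb-/- group. The diabetic groups coincided and the control groups did not. Ccng1 was higher in diabetic kidneys by 0.95 log2 units in Cfb-/- mice (SE 0.15, adjusted p = 0.000268) and by 1.75 in WT mice (SE 0.15, adjusted p = 3.05e-06).

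Mdm2, the ligase that marks p53 for degradation, was at 4.80, 3.21, and 4.39 FPKM in the WT controls, 5.91, 6.49, and 6.39 FPKM in the Cfb-/- controls, 9.73, 7.88, 8.23, and 8.01 FPKM in the diabetic WT group, and 10.0, 10.5, 10.5, and 9.01 FPKM in the diabetic Cfb-/- group. Every Cfb-/- control mouse lay between the WT control and the diabetic mice, and the diabetic groups overlapped. It was higher in diabetic kidneys by 0.67 log2 units in Cfb-/- mice (SE 0.13, adjusted p = 0.00146) and by 1.03 in WT mice (SE 0.13, adjusted p = 5.06e-05). Trp53inp1, a nuclear protein that promotes p53 activity and autophagy, was at 9.40, 3.74, and 5.59 FPKM in the WT controls, 10.8, 6.33, and 9.13 FPKM in the Cfb-/- controls, 20.9, 18.8, 20.1, and 18.8 FPKM in the diabetic WT group, and 22.0, 21.3, 25.9, and 19.6 FPKM in the diabetic Cfb-/- group. Its control groups overlapped widely, and neither reached a diabetic mouse. The differences were 1.36 log2 units in Cfb-/- mice (SE 0.24, adjusted p = 0.000582) and 1.74 in WT mice (SE 0.24, adjusted p = 8.07e-05).

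Phlda3, Zmat3, Sesn2, and Bax act on growth signaling, RNA, and cell death. Phlda3, a small pleckstrin homology protein that blocks Akt at the membrane, was at 3.23, 3.89, and 3.37 FPKM in the WT controls, 5.72, 5.77, and 5.23 FPKM in the Cfb-/- controls, 35.7, 28.6, 33.7, and 44.6 FPKM in the diabetic WT group, and 50.6, 51.0, 31.9, and 33.0 FPKM in the diabetic Cfb-/- group. Control mice were tight within each genotype, and the Cfb-/- diabetic mice fell into a higher and a lower pair. The differences were 2.84 log2 units in Cfb-/- mice (SE 0.18, adjusted p = 3.05e-07) and 3.30 in WT mice (SE 0.18, adjusted p = 5.91e-08). Zmat3, a zinc finger protein that binds RNA, was at 3.50, 2.32, and 2.86 FPKM in the WT controls, 3.81, 4.24, and 4.48 FPKM in the Cfb-/- controls, 10.9, 9.42, 8.63, and 10.96 FPKM in the diabetic WT group, and 12.3, 10.4, 11.3, and 10.5 FPKM in the diabetic Cfb-/- group. Diabetic and control mice were well apart, by 1.39 log2 units in Cfb-/- mice (SE 0.14, adjusted p = 8.98e-06) and by 1.76 in WT mice (SE 0.14, adjusted p = 1.76e-06).

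Bax and Sesn2 differed least. Bax, which permeabilizes the mitochondrial outer membrane in apoptosis, was at 5.77, 10.00, and 7.97 FPKM in the WT controls, 6.12, 7.88, and 5.73 FPKM in the Cfb-/- controls, 10.6, 9.62, 10.9, and 13.3 FPKM in the diabetic WT group, and 12.1, 11.5, 9.48, and 8.69 FPKM in the diabetic Cfb-/- group. WT control replicate 2 lay above WT diabetic replicate 2, so the WT groups overlapped (exact two-sided permutation p = 0.114). The differences were 0.66 log2 units in Cfb-/- mice (SE 0.18, adjusted p = 0.0126) and 0.51 in WT mice (SE 0.18, adjusted p = 0.0353). Sesn2, a stress protein that restrains the growth kinase mTORC1, was at 10.3, 11.5, and 13.4 FPKM in the WT controls, 12.8, 10.2, and 11.5 FPKM in the Cfb-/- controls, 13.8, 14.7, 14.2, and 17.3 FPKM in the diabetic WT group, and 16.8, 14.4, 16.5, and 15.0 FPKM in the diabetic Cfb-/- group. The groups did not overlap, and in WT mice the lowest diabetic and the highest control mouse were close. The differences were 0.45 log2 units in Cfb-/- mice (SE 0.12, adjusted p = 0.00871) and 0.35 in WT mice (SE 0.12, adjusted p = 0.0244).

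Calls for Bax and Sesn2 depended on the scaling between mice, and those of the other members did not. FPKM sums were 330246 to 364953 in diabetic mice and 372884 to 488196 in control mice, and Kap, an androgen-driven proximal tubule transcript, held 1.98% to 4.60% of the sum in diabetic and 10.2% to 13.9% in control mice. With median-ratio scaling, which centers the genes of each mouse on a common reference, the adjusted p was 0.133 for Bax and 0.191 for Sesn2 in Cfb-/- mice and 0.375 and 0.631 in WT mice. With quantile normalization Bax was at 0.0856 and 0.230, and Sesn2 lost its call in WT mice at 0.145. The share of higher genes among all called genes fell from 81.0% to 56.7% and 49.1% in Cfb-/- mice under these scalings, and from 78.4% to 50.2% and 44.2% in WT mice.

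**Figure D2:**
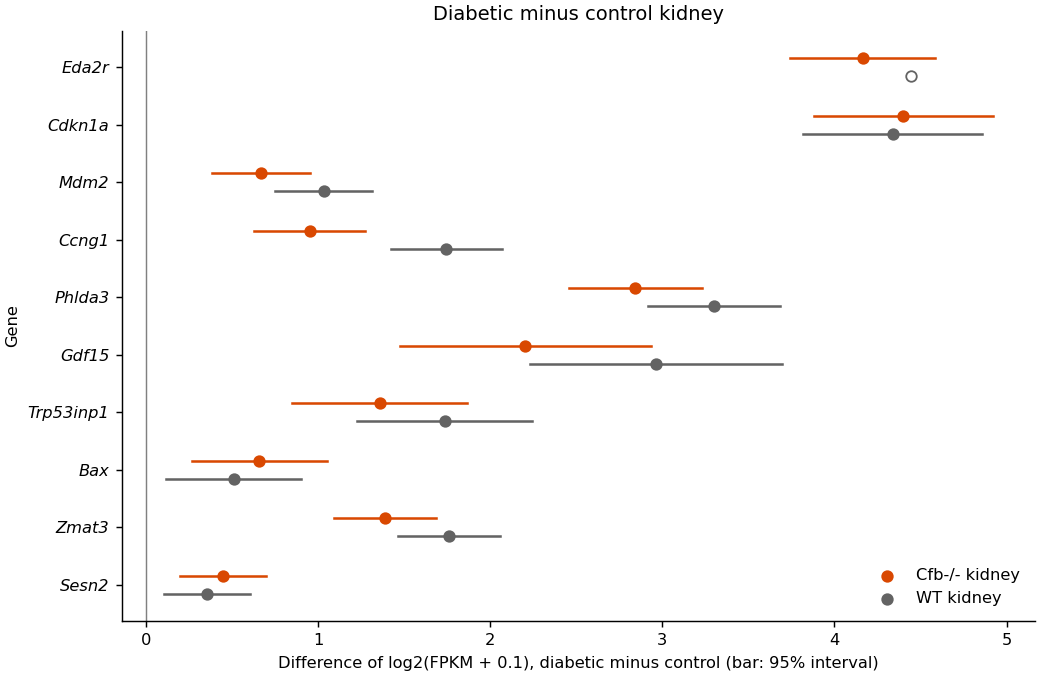
Difference of log2(FPKM + 0.1) between diabetic and control kidney for each gene, in Cfb-/- and in WT mice, with bars for 95% intervals and an open point without a bar where Eda2r was chosen on the same mice. Cdkn1a (4.40 and 4.34) and Eda2r (4.16 and 4.44) lay far to the right of the other genes, and Bax and Sesn2 lay nearest to 0.

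Between genotypes, the diabetic kidneys did not differ detectably in any of the 9 genes tested. None was called by limma, against 0.00671% of all tested genes in either direction, and none had an unadjusted p under 0.05, against 3% of all tested genes. The groups overlapped in each gene, whereas they did not in 2.75% of all tested genes. The Cfb-/- minus WT difference was 0.24 log2 units for Cdkn1a (95% interval -0.24 to 0.73), 0.24 for Mdm2 (-0.02 to 0.50), 0.20 for Gdf15 (-0.47 to 0.88), 0.01 for Ccng1 (-0.29 to 0.31), and -0.09 for Bax (-0.46 to 0.27). These intervals hold differences of up to 0.88 log2 units, so that equal levels were not shown. Eda2r differed by 0.25 log2 units, given as a description.

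In control kidneys several members were higher in Cfb-/- than in WT mice without passing adjustment. None of the 9 tested genes was called at an adjusted p under 0.05, against 0.00671% of all tested genes, whereas 6 of the 9 had an unadjusted p under 0.05, against 17.5% of all tested genes. These were Ccng1 at 0.81 log2 units (SE 0.16, adjusted p = 0.190), Phlda3 at 0.66, Mdm2 at 0.61, Zmat3 at 0.53, Gdf15 at 0.96, and Trp53inp1 at 0.55, with adjusted p from 0.190 to 0.284. In Mdm2, Ccng1, Phlda3, and Zmat3 all 3 Cfb-/- control mice were above all 3 WT control mice, against 6.67% of all tested genes. Cdkn1a differed by 0.18 log2 units (95% interval -0.38 to 0.74), Bax by -0.24, and Sesn2 by -0.03. Eda2r had 0.0767 to 0.120 FPKM with Cfb-/- and 0.0186 to 0.0888 FPKM with WT, and these ranges overlapped.

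Calls in the control comparison turned on WT control replicate 1. Without this mouse Ccng1 (adjusted p = 0.0184), Mdm2 (0.0241), Zmat3 (0.0261), and Trp53inp1 (0.0300) were called higher in Cfb-/- mice, against 6.34% of all tested genes that were then higher and 5.14% that were lower. It had the highest Eda2r, Cdkn1a, Mdm2, Ccng1, Zmat3, and Trp53inp1 and the lowest Phlda3, Gdf15, Bax, and Sesn2 of the 3 WT control mice. Nothing in the labels sets it apart. Other control mice moved values that were not called. Without Cfb-/- control replicate 2 the Gdf15 difference was 0.42 log2 units. Without WT control replicate 2, which had the largest FPKM sum of all mice, the Trp53inp1 difference was 0.23.

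The diabetes effect was not shown to differ between genotypes for any member. Of the 9 genes tested, 0 had an adjusted p under 0.05 in the interaction by limma, as did 0 of all tested genes. Ccng1 alone had an unadjusted p under 0.05, at -0.80 log2 units (SE 0.21, unadjusted p = 0.0021, adjusted p = 0.730), against 5.77% of all tested genes. The interaction was -0.46 log2 units for Phlda3, -0.76 for Gdf15, -0.37 for Zmat3, -0.36 for Mdm2, and 0.06 for Cdkn1a, with a median of -0.37 over the 9 genes against -0.01 over all tested genes. Without Cfb-/- control replicate 2 it was -0.22 for Gdf15. This comparison shares all of its mice with the comparisons above.

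**Figure D3:**
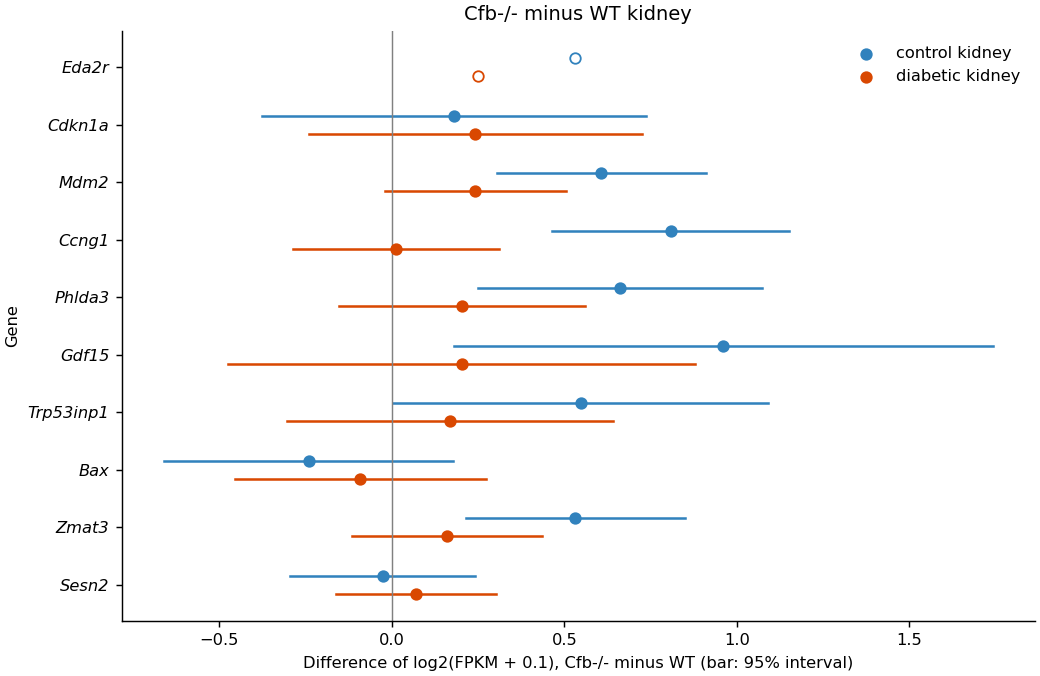
Difference of log2(FPKM + 0.1) between Cfb-/- and WT kidney for each gene, in control and in diabetic mice, with bars for 95% intervals and open points without bars for Eda2r. In control mice Gdf15 (0.96), Ccng1 (0.81), Phlda3 (0.66), Mdm2 (0.61), Trp53inp1 (0.55), and Zmat3 (0.53) lay above 0 with intervals that excluded it. In diabetic mice each interval included 0.

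Cdkn1a was the gene most like Eda2r across all mice. Over the 14 mice, the Pearson correlation of log2 levels with Eda2r was highest for Cdkn1a (r = 0.995) among 11394 genes with a mean of at least 1 FPKM, followed by Aldh1a1 (0.990), an enzyme of retinoic acid synthesis, Grem1 (0.989), a secreted BMP antagonist, Sulf2 (0.989), and Ephx1 (0.988). Phlda3 was at place 11, Zmat3 at place 15, and Bax at place 3264. With quantile normalization Aldh1a1 was first and Cdkn1a second, both at 0.991. These points share the split between diabetic and control mice. By deviations from the 4 group means, which remove that split, Trp53inp2 was first (0.950), then Insig1 (0.920), and Zmat3 (0.873), while Cdkn1a was at place 18 (0.804) and Ccng1 at place 117. With quantile normalization this order changed to Insig1 (0.895), Ccng1 (0.856), and Trp53inp2 (0.846), with Zmat3 at place 7 and Cdkn1a at place 77. The deviations of Eda2r include control mice, in which it was close to the lowest readable value. WT control replicate 1 was at 0.0888 FPKM, and replicates 2 and 3 were at 0.0200 and 0.0186 FPKM. How far these correlations rest on that mouse was not tested.

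Within groups, the members did not move as a block. Of the 45 pairs of members, 26 had a positive correlation of deviations over the 14 mice, with a median of 0.108 and a range from -0.733 for Trp53inp1 with Bax to 0.873 for Eda2r with Zmat3. Pairs with Eda2r include its control values, which were close to the lowest readable value. Bax went with Phlda3 (0.752) and Gdf15 (0.739) and against Ccng1 (-0.625). Cfb-/- diabetic replicate 1 was above its group mean in 8 of the 10 genes and replicate 4 in 1 of them, and WT diabetic replicate 4 was above in 8. All values of a mouse share 1 library and its depth.

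The gene for p53 was higher in diabetic kidneys, whereas the list of p53 and its regulators was called about as often as genes in general. Of 16 tested genes in that list, 5 were higher and 0 were lower in Cfb-/- mice and 7 were higher and 0 were lower in WT mice, which is 31.25% and 43.75% higher against the 27.4% and 36.2% of all genes given above. The median difference was 0.14 and 0.44 log2 units, against 0.22 and 0.29 over all tested genes. With median-ratio scaling 3 were higher and 0 were lower in Cfb-/- mice and 2 were higher and 3 were lower in WT mice, and with quantile normalization 3 and 0 and 3 and 1. Of all genes, 18.5% and 22.7% were higher and 14.1% and 22.5% lower with median-ratio scaling. With quantile normalization 14.4% and 15.9% were higher and 14.9% and 20.1% lower. The genes of the list lower in WT mice were Kat5, Rpl5, and Rpl11, of which Kat5 was lower under both scalings. Trp53 ranged from 11.7 to 16.7 FPKM in the diabetic Cfb-/- group, from 13.2 to 16.0 in the diabetic WT group, from 7.57 to 9.29 in the Cfb-/- controls, and from 9.79 to 10.3 in the WT controls, so that diabetic and control mice did not overlap. It was higher in diabetic kidneys by 0.73 log2 units in Cfb-/- mice (SE 0.13, adjusted p = 0.0005) and by 0.51 in WT mice (SE 0.13, adjusted p = 0.00493), but its call in WT mice was lost with median-ratio scaling. Its mRNA says nothing of the p53 protein, which was not measured.

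Cdkn2a, whose product ARF blocks MDM2 and whose other product p16 inhibits CDK4 and CDK6, was listed at 0 in all 6 control mice. It was at 1.28, 0.619, 0.492, and 0.579 FPKM in the diabetic Cfb-/- group and at 0.553, 0.263, 0.373, and 1.05 FPKM in the diabetic WT group. Every diabetic mouse thus had a value, and gene-level FPKM does not separate the products. With every control at 0 it passed the filter on low values through the diabetic mice alone, so its calls, which are among the counts of this list and of the CDK inhibitors, carry no weight of their own. The checkpoint kinase genes Chek1 (1.34 and 1.45 log2 units) and Chek2 (0.49 and 0.68) and the p53 phosphatase gene Ppm1d (0.48 and 0.46) were higher in both genotypes, although Chek2 and Ppm1d were not called under either scaling. Hipk2 (0.79) and Trp63 (0.79) were called in WT mice only, a difference between genotypes that the interaction did not call. All 5 urothelium markers were also called higher in WT mice and 0 in Cfb-/- mice, against 36.2% and 27.4% of all genes. They summed to 0.279 to 0.610 FPKM in the WT controls and 0.690 to 45.7 FPKM in the diabetic WT group. The sums were 0.607 to 8.77 FPKM in the Cfb-/- controls and 1.22 to 3.09 FPKM in the diabetic Cfb-/- group, so they varied widely between mice. The part of urothelium in Trp63, which it expresses, was not tested. Mdm4, the partner of MDM2 (0.10 and 0.20), Usp7, Atm, Atr, Trp53bp1, Kat5, Rchy1, Rpl5, and Rpl11 were not called in either genotype without scaling, and Trp73 was too low to be tested.

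Of 70 further p53 targets, 40 were higher and 1 was lower in Cfb-/- diabetic kidneys, and 42 were higher and 3 were lower in WT diabetic kidneys. The share that was higher was 57.1% and 60.0%, against 27.4% and 36.2% of all tested genes. The median difference was 0.57 and 0.67 log2 units, against 0.22 and 0.29 over all tested genes. With median-ratio scaling 31 and 35 were higher, against 18.5% and 22.7% of all genes. This list was drawn up with earlier results of these data known, so its shares are not independent of them. It holds Ephx1 and Sulf2, which are among the 5 genes most like Eda2r over all mice. Ephx1, a microsomal epoxide hydrolase, was at 121 ± 12.0 FPKM in Cfb-/- diabetic (SD, n = 4) and 16.6 ± 3.35 in Cfb-/- control mice (SD, n = 3), a difference of 2.87 log2 units (SE 0.15, adjusted p = 6.30e-08). Sulf2, a sulfatase of heparan sulfate, differed by 2.19 log2 units (SE 0.19), the death receptor gene Tnfrsf10b by 1.99 (SE 0.18), and Pltp, a phospholipid transfer protein, by 1.93 (SE 0.23). In WT mice these 4 genes differed by 3.10, 2.30, 2.21, and 1.77 log2 units. Bid, a pro-apoptotic member of the BCL2 family, fell by 0.59 log2 units in Cfb-/- mice (SE 0.13, adjusted p = 0.00309) and by 0.83 in WT mice. Dcxr (-0.85) and Igfbp3 (-0.79) were the other two that were lower in WT mice.

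The wider set of genes that the files tie to p53 did not stand out. The files attach a GO term with p53 in its name to 179 genes, among them 7 of the 10 members. Of the 164 others that were tested, 45 were higher and 4 were lower in Cfb-/- mice, which is 27.4% higher, and 61 were higher and 8 were lower in WT mice, which is 37.2% higher. These shares are close to the 27.4% and 36.2% of all genes.

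**Figure D4:**
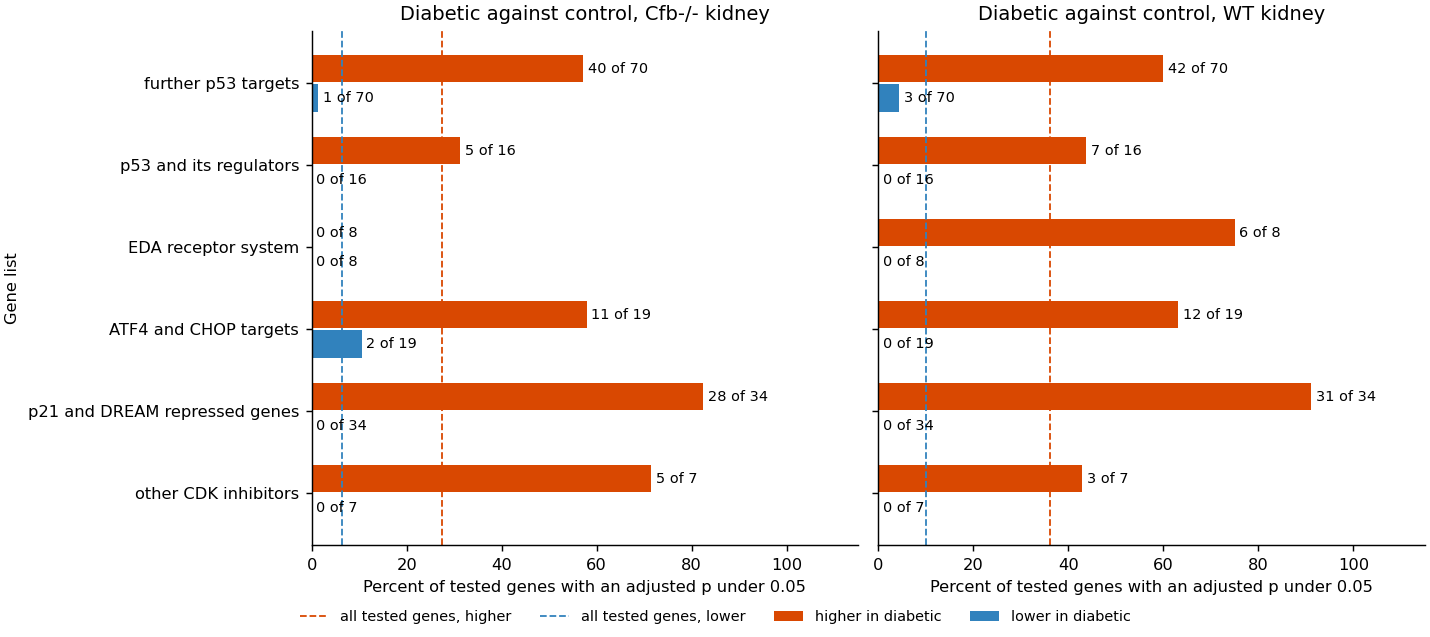
Percent of the tested genes of each list that were higher or lower in diabetic kidney at an adjusted p under 0.05, in Cfb-/- and in WT mice, with dashed lines at the percent over all tested genes. The 70 further p53 targets (40 and 42 higher) and the 34 p21 and DREAM repressed genes (28 and 31 higher) lay above the dashed lines in both panels, whereas the EDA receptor system had 0 of 8 and 6 of 8.

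The ligand and signaling partners of the EDA receptors differed by far less than Eda2r. Eda, the ectodysplasin gene, was at 0.153 ± 0.020 FPKM in the WT controls (SD, n = 3), 0.207 ± 0.022 in the Cfb-/- controls (SD, n = 3), 0.334 ± 0.069 in the diabetic WT group (SD, n = 4), and 0.316 ± 0.041 in the diabetic Cfb-/- group (SD, n = 4). It was higher in WT diabetic kidneys by 0.76 log2 units (SE 0.19, adjusted p = 0.00484), and in Cfb-/- mice the difference was 0.44 (SE 0.19, adjusted p = 0.0861). Of the 8 tested genes of the list, 0 were called in Cfb-/- mice and 6 were higher in WT mice. Of all genes, 27.4% and 36.2% were higher. With median-ratio scaling 3 of the 8 were higher in WT mice, against 22.7% of all genes, and with quantile normalization 1, against 15.9%. The adaptor gene Traf3 differed by 0.43 and 0.77 log2 units, Tnfrsf19 by -0.07 and 1.68 with a spread of 0.191 to 2.05 FPKM in the diabetic WT group, Traf6 by 0.16 and 0.49, Map3k7 by 0.17 and 0.51, and Tab2 by 0.20 and 0.45. Edar, the receptor for the A1 form of ectodysplasin, and its adaptor Edaradd were not called in either genotype, although Edar was called lower in Cfb-/- mice with quantile normalization. The interaction called 0 of the 8.

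Gdf15 and Sesn2 are also known targets of ATF4 and CHOP, factors of the integrated stress response. Of 19 other tested targets of these factors, 11 were higher and 2 were lower in Cfb-/- diabetic kidneys, and 12 were higher and 0 were lower in WT diabetic kidneys, against 27.4% and 36.2% of all genes that were higher. With median-ratio scaling 11 and 8 were higher and 2 and 1 were lower, the latter being Vldlr, against 18.5% and 22.7% of all genes that were higher. Atf3 (2.37 log2 units, SE 0.44), the secreted glycoprotein gene Stc2 (2.28, SE 0.23), and the stress gene Nupr1 (1.69, SE 0.31) led in Cfb-/- mice. Psat1, an enzyme of serine synthesis, fell by 0.63 log2 units there (SE 0.22, adjusted p = 0.0408), and Vldlr, a lipoprotein receptor, by 0.56 (SE 0.17, adjusted p = 0.021). Atf4 itself was at 86.2 FPKM in Cfb-/- diabetic and 76.6 FPKM in Cfb-/- control mice (adjusted p = 0.412).

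Genes of the cell cycle that p53 is known to repress through p21 and the DREAM complex were higher, not lower, in diabetic kidneys. Of 34, 28 were higher and 0 were lower in Cfb-/- mice, and 31 were higher and 0 were lower in WT mice, against 27.4% and 36.2% of all genes that were higher. With median-ratio scaling 27 and 30 were higher, against 18.5% and 22.7% of all genes, and with quantile normalization 22 and 23, against 14.4% and 15.9%. Rrm2, a subunit of ribonucleotide reductase, was at 4.18 ± 0.56 FPKM in Cfb-/- diabetic (SD, n = 4) and 1.21 ± 0.39 in Cfb-/- control mice (SD, n = 3), a difference of 1.74 log2 units (SE 0.25, adjusted p = 0.000125). The mitotic kinesin gene Kif23 differed by 1.73 (SE 0.31) and the replication helicase gene Mcm3 by 1.65 (SE 0.20). Bulk RNA does not say whether the same cells hold both.

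Of the 7 other CDK inhibitors, 5 were higher in Cfb-/- and 3 in WT diabetic kidneys, and 0 were lower, against 27.4% and 36.2% of all genes that were higher. With median-ratio scaling 3 and 2 were higher, against 18.5% and 22.7% of all genes, and with quantile normalization 2 and 2, against 14.4% and 15.9%. Cdkn2b, which encodes p15, differed by 1.47 log2 units in Cfb-/- mice (SE 0.53, adjusted p = 0.0436) and by 3.50 in WT mice (SE 0.53, adjusted p = 0.000158), from levels of 0.0906 to 0.870 FPKM in WT control mice. Cdkn1c, which encodes p57, differed by 1.28 in Cfb-/- mice (adjusted p = 0.00471) and 0.55 in WT mice (adjusted p = 0.147), Cdkn3 by 1.47 (adjusted p = 0.0158) and 0.99 (adjusted p = 0.071), and Cdkn2c by 0.40 and 0.21. Cdkn1b, which encodes p27, differed by 0.23 and by 0.40, the latter called in WT mice (adjusted p = 0.0226). Cdkn1c had the highest diabetic level of the 7, reaching 32.9 FPKM in the diabetic Cfb-/- group, where Cdkn1a was at 80.1 to 131 FPKM.

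Markers of injured tubule, macrophages, and fibroblasts were mostly higher in diabetic kidneys, as the members were, whereas proximal tubule markers were mostly lower. The kidney was present by its defining markers, with proximal tubule markers at a summed 1779 to 4652 FPKM in all mice. Of 7 injured tubule markers, which include Havcr1 and Lcn2, 7 were higher in diabetic kidneys of both genotypes, and their summed level was 54.3 to 72.3 FPKM in the WT controls, 51.8 to 57.7 in the Cfb-/- controls, 168 to 255 in the diabetic WT group, and 122 to 297 in the diabetic Cfb-/- group. Krt20, which is among them, was at only 0.0233 to 0.105 FPKM in control mice. It passed the filter on low values through diabetic mice, so its calls carry no weight of their own. Of 5 macrophage markers 4 and 5 were higher, with sums of 71.9 to 120 FPKM in diabetic and 23.3 to 35.1 FPKM in control mice. All 4 fibroblast markers were higher in both, with sums of 43.1 to 83.9 FPKM in diabetic and 18.0 to 28.3 FPKM in control mice. Of 8 proximal tubule markers 6 and 5 were lower, against 6.4% and 9.97% of all genes. Their sums were 1779 to 2897 FPKM in diabetic and 4213 to 4652 FPKM in control mice. Of the markers of thick ascending limb, distal convoluted tubule, principal cells, and intercalated cells, 0 were called in Cfb-/- mice. In WT mice 2 of 3, 0 of 3, 2 of 4, and 1 of 3 were higher, and 1 intercalated cell marker was lower. With median-ratio scaling 0 of these were higher in WT mice, and with quantile normalization 3, 0, 1, and 1. Of 4 podocyte markers 4 and 1 were higher, of 4 endothelium markers 2 and 1, of 4 T cell markers 3 and 3, of 4 B cell markers 1 and 3, and of 4 adipocyte markers 1 and 4, against 27.4% and 36.2% of all genes. With median-ratio scaling the T cell counts were 2 and 0, the B cell counts 0 and 3, the podocyte counts 4 and 0, the endothelium counts 1 and 1, and the adipocyte counts 0 and 4. Injured tubule counts were then 7 and 6 and fibroblast counts 4 and 3, and 18.5% and 22.7% of all genes were higher. With quantile normalization 0 T cell and B cell markers were higher in either genotype, and Cd8a, a T cell marker, was lower in WT mice. Under it 3 and 2 fibroblast markers, 2 and 1 podocyte markers, 2 and 2 endothelium markers, and 1 and 2 adipocyte markers were higher, and 5 and 3 proximal tubule markers were lower. Of all genes 14.4% and 15.9% were then higher, and 14.9% and 20.1% were lower. T cell and B cell markers summed to at most 6.83 and 6.68 FPKM in any mouse. The part of these cell types in the levels of Eda2r and the p53 targets was not tested.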

How the data were processed

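Stranded mRNA libraries of 14 kidneys had been sequenced from both ends. The authors deposited gene-level FPKM values, 1 file per mouse. The submitters' processing notes name Trimmomatic, HISAT2, Cufflinks, HTSeq, DESeq, and GRCm38.p6, with no role for each. Values are fractional and their sums differ between mice, so a count test was not used. Absolute depth is unknown, and relative depth, from the steps between low values, was 0.838 to 1.

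Genes that reached 0.1 FPKM in 3 or more mice (14912 of 21878) were fitted on log2(FPKM + 0.1) with limma 3.58.1 in R 4.3.3, with trended moderation, a mean for each group, all 14 mice, and no further scaling. Two-sided p-values were adjusted by Benjamini-Hochberg, and calls were made at an adjusted p under 0.05. Python 3.11.15 and scipy 1.17.1 gave exact permutation tests. The scripts were tested on simulated data. Alternatives were other pseudocounts, filters, scalings, the compared groups alone, a replicate block, other call criteria, and leaving out each mouse.

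The 10 members and all gene lists were chosen with earlier results of these data known. Named list genes were the 5 (further p53 targets) or 3 (other lists) largest rises and falls among called genes with a mean of at least 1 FPKM, and all genes of the EDA and regulator lists. Genes named beside counts of 5 or fewer, and Atf4, Cd8a, Cdkn1b, and Cdkn3, were added after values were seen. The lists overlap in Ppm1d and Cdkn2a. Cop1, Trp53cor1, and Pvt1 were not analysed here. A few items that the naming rule covers are not reported here.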

Additional observations from a re-analysis of the deposited data

How the results depend on the processing

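At a fold change over 2 with an unadjusted p under 0.05 in place of an adjusted p, 6 of 10 members were higher in Cfb-/- diabetic kidneys, and of the further p53 targets 25 were higher and 0 lower in Cfb-/- mice and 27 higher and 0 lower in WT mice. Of all tested genes, 13.3% were higher in Cfb-/- mice and 15.6% in WT mice by this criterion. Further targets that were lower numbered 2 in Cfb-/- mice with median-ratio scaling, with quantile normalization, and in a fit to the compared groups alone, and 5 in WT mice with median-ratio scaling. With median-ratio scaling 14.1% of all tested genes were lower in Cfb-/- mice and 22.5% in WT mice. With quantile normalization 14.9% were lower in Cfb-/- mice. Leaving out single mice gave 9 to 10 members higher in Cfb-/- and 7 to 9 in WT diabetic kidneys, and 1 to 2 further targets lower in Cfb-/- mice. Without WT control replicate 1, 28.3% of all tested genes were higher in Cfb-/- and 38% in WT diabetic kidneys, and 6.96% were lower in Cfb-/- mice. Shares for the other mice left out are not given here. In control kidneys, genotype calls ran from 0 to 4 members, 0 to 11 further targets higher, and 0 to 2 lower, all of them without WT control replicate 1. Without that mouse 6.34% of all tested genes were higher and 5.14% were lower in Cfb-/- control kidneys.

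Small genotype differences changed sign. In diabetic kidneys Ccng1 was -0.041 log2 units with median-ratio scaling and ran from -0.071 to 0.094 without single mice. In control kidneys, without single mice, Cdkn1a ran from -0.029 to 0.52 and Sesn2 from -0.11 to 0.073. In the interaction Eda2r was 0.11 with a pseudocount of 1, and without single mice Cdkn1a ran from -0.28 to 0.27, Bax from -0.035 to 0.36, and Sesn2 from -0.0029 to 0.18. The cause was not tested.

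Replicate numbers did not pair the mice: over 19 same-numbered pairs the correlation of deviations was -0.388 to 0.243, and 3 were over 0.1. With the number as a replicate block, 10 members were higher in Cfb-/- and 7 of 9 in WT diabetic kidneys, where Bax (adjusted p = 0.0586) and Sesn2 (adjusted p = 0.0569) lost their calls. The share of all tested genes called with this block is not given here. Sesn2 in Cfb-/- mice had an adjusted p of 0.0516 without control replicate 2, and Bax 0.0554 without control replicate 3. Eda2r levels in control mice are near the lowest value the libraries can give, which limits how well the size of its fold change is known.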
